A study of Mus musculus with 64 samples.

Results

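The cytosolic sulfotransferases described here are 10 mouse genes, Sult1a1, Sult1b1, Sult1c2, Sult1d1, Sult1e1, Sult2a8, Sult2b1, Sult3a1, Sult4a1 and Sult5a1. They were found by gene symbol, and all 10 were present among the 55414 gene IDs counted in the acute experiment and the 55573 counted in the continuous experiment. RNA was sequenced from wild-type (WT) mice and from Angelman syndrome (AS) model mice, which inherit from the mother a deleted allele of Ube3a, a ubiquitin ligase gene. The question addressed was whether the response to corticosterone (CORT), the main glucocorticoid of mice, differs when UBE3A is missing. In the acute experiment the left hippocampus was taken 3 h after vehicle or 3 mg/kg CORT was injected subcutaneously, with 6 mice in each of the 4 groups. In the continuous experiment the left hippocampus and the liver were taken after 5 days with a subcutaneous cholesterol vehicle pellet or with a pellet that held 20 mg CORT besides cholesterol, with 5 mice in each of the 4 groups.

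All mice were males of 10 to 18 weeks and F1 hybrids of C57BL/6J fathers and 129sv mothers that carried the deletion on their paternal allele (Ube3a m+/p-, allele Ube3atm1Alb). AS mice are Ube3a m-/p+ and WT mice inherited no deletion. Neurons silence the paternal allele of Ube3a, so AS neurons lack the protein, whereas other cells, those of the liver among them, keep 1 working allele. The pellet and the single injection differ in dose, in duration and in the interval to collection, so levels of the cohorts were set side by side and not compared.

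Cytosolic sulfotransferases transfer a sulfonate group from the donor 3'-phosphoadenosine-5'-phosphosulfate (PAPS) to the hydroxyl or amino group of hormones, neurotransmitters, bile acids and drugs. The conjugate is usually more soluble in water and no longer binds the receptor of the parent hormone. In liver the family is a branch of phase II metabolism beside glucuronidation, and several of its hepatic genes are known targets of nuclear receptors. Members of family 1 act mainly on phenols, among them estrogens, thyroid hormones and catecholamines, and members of family 2 on alcohol groups of steroids and bile acids. The gene of family 4 is an orphan of the brain.

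Depth was even, with 19049461 to 21052967 reads assigned to genes in acute hippocampi, 19112929 to 21783009 in continuous hippocampi and 18612550 to 20868924 in livers. A count of 3, the floor used here, corresponded to between 0.138 and 0.161 CPM (counts scaled to the reads on genes of a library, here before TMM normalization), a limit that covers counting error only. CPM in what follows are TMM-normalized. Summed CPM of the 5 neuronal markers was 9489 to 14542 in the hippocampus and 64.4 to 222 in the liver, and that of the 5 hepatocyte markers was 90778 to 139691 in the liver. In the hippocampus the hepatocyte markers summed to 0.229 to 114 CPM, with the most in H1, a WT vehicle mouse, and H2, an AS vehicle mouse of the continuous cohort, so results that rest on these libraries are also given without them. H9 and H13 of the continuous hippocampus, an AS and a WT vehicle mouse, were left out as technical outliers by the study and were left out of the fits here. Ube3a, whose remaining exons can still be counted, was lower in AS livers by 0.55 on the log2 scale with vehicle (edgeR adjusted p = 0.0191) and by 0.48 with CORT (adjusted p = 0.0133), and its difference of -0.06 in acute vehicle hippocampus did not pass (adjusted p = 0.895). Fkbp5, a chaperone gene that glucocorticoids induce, rose with CORT in every data set, by 0.82 and 1.10 in WT and AS acute hippocampus, by 0.58 and 1.05 in continuous hippocampus and by 3.43 and 4.14 in liver.

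Promoter sequence of 3 members is shown because these 3 were higher in every CORT liver than in any vehicle liver of the same genotype. The stretches lie within 250 bases before the RefSeq transcription start on GRCm38.p6 and run 5' to 3' on the minus strand that carries each gene. They are chr7:126676433-126676668 for Sult1a1 (250 to 15 bases before the start), chr5:87569028-87569256 for Sult1d1 (250 to 22 bases) and chr5:87591612-87591861 for Sult1e1 (250 to 1 bases). Capitals mark AGAACA or TGTTCT, a half-site of the glucocorticoid receptor, and AGGTCA or TGACCT, a half-site of other nuclear receptors.
Sult1a1: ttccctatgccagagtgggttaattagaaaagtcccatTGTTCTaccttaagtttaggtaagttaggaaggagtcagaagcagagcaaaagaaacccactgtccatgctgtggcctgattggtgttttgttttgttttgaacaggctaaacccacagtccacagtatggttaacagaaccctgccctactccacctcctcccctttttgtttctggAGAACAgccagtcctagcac
Sult1d1: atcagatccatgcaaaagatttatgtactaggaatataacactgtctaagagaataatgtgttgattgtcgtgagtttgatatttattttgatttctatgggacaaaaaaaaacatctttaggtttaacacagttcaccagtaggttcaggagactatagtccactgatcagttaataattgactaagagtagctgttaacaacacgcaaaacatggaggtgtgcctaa
Sult1e1: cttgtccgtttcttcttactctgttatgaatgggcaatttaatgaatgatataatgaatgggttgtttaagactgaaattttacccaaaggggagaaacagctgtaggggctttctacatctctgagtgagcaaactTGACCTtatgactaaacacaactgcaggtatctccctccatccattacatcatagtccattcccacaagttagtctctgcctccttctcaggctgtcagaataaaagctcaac
The Sult1a1 window held the glucocorticoid receptor half-site 2 times, at 212 to 207 and at 34 to 29 bases before the start, on opposite strands. The Sult1e1 window held AGGTCA once, at 113 to 108 bases before the start, and the Sult1d1 window held neither. AGGTCA also occurred 2 times in a window of Sult2a8, which fell with CORT, and once in a window of Sult1b1. Of 32851 RefSeq promoter windows of 250 bases, 16.1% held the first of these half-sites and 14% the second on either strand. Promoters were given for 9 of the 10 members, and a match is a description of the letters and not of a bound site.

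Sult1a1, the phenol sulfotransferase of family 1 that conjugates small phenols, thyroid hormones and catecholamines, was counted in every library of both tissues and rose with CORT in all 3 data sets and both genotypes. It lies on chr7:126672865-126676432 of GRCm38, on the minus strand, and shares 61 bases of exon with Sgf29 on the other strand. In the acute hippocampus its lowest, median and highest values were 4.0, 5.88 and 7.21 CPM with vehicle and 10.8, 12.6 and 14.2 CPM with CORT in WT mice. The AS vehicle mice had 4.59, 5.20 and 5.98 CPM and the AS CORT mice 10.7, 11.5 and 12.7 CPM. No CORT mouse overlapped a vehicle mouse in either genotype. Means rose from 5.93 ± 1.15 to 12.5 ± 1.18 CPM in WT (SD, n = 6), a 2.11-fold rise with a log2 fold change of 1.08 ± 0.10 (SE, edgeR adjusted p = 1.63e-07). In AS mice they rose from 5.29 ± 0.607 to 11.5 ± 0.758 CPM (SD, n = 6), 2.18-fold, with a log2 fold change of 1.12 ± 0.11 (SE, edgeR adjusted p = 5.96e-08). Among the 14611 genes tested, Sult1a1 had the 7th smallest p in WT and the 13th in AS mice. The response in AS minus that in WT was 0.05 on the log2 scale (edgeR adjusted p = 0.883), a difference that did not pass the test.

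Of the 24 acute libraries, 8 stood apart with 2640 to 2850 reads set aside for low alignment quality, against 1877 to 2237 in the other 16, and the 8 were all 6 AS CORT mice and 2 of the AS vehicle mice. With this division as a covariate the log2 fold change of Sult1a1 in AS mice was 1.01 (edgeR adjusted p = 3.54e-04), and against only the 2 AS vehicle mice of the same side it was 1.01 (adjusted p = 7.80e-04). Within a group only the AS vehicle mice were divided, 4 on the lower and 2 on the upper side, so the covariate rests on them. Over all genes the covariate took the share called for CORT in AS mice from 17.9% to 1.03%. Of 19 genes called for it among the members, the checks, the markers and the related lists described further on, 3 were called with the covariate, Sult1a1, Fkbp5 and Tsc22d3, a use of the covariate chosen after the data were seen. In WT mice all 6 such genes were called with it, but all 12 WT mice lay on the lower side, so the covariate could hardly change their differences. Markers of oligodendrocytes were also lower in AS CORT mice, with 2 of 4 past the threshold (Mag and Mbp, summed list 1364 to 2672 CPM against 2008 to 4049 with vehicle). Of 3 microglial markers 2 were lower in both genotypes and passed (Cx3cr1 and P2ry12), whereas Csf1r had log2 differences of 0.081 in WT and 0.071 in AS mice that did not pass. Their part in the values of the sulfotransferases was not tested, and fewer cells of a type cannot be told apart from less RNA per cell in these bulk samples.

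**Figure D1:**
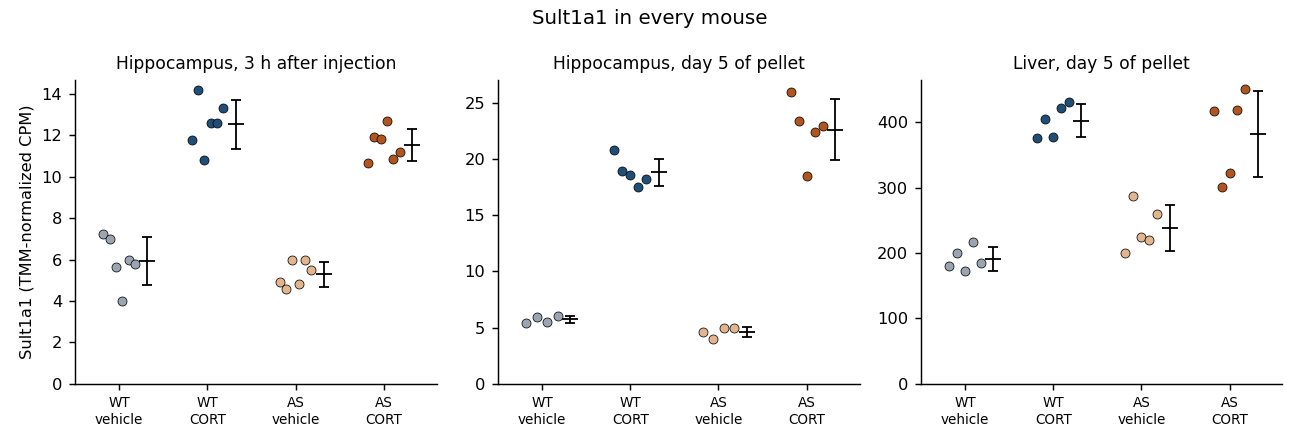
Sult1a1 in CPM (TMM-normalized) for each mouse in the acute hippocampus, the continuous hippocampus and the liver, by genotype and treatment. Points are mice, and bars give the mean and SD of each group. In all 3 panels the CORT mice of a genotype lie above every vehicle mouse of that genotype, from 10.7 CPM in the acute hippocampus, 17.5 CPM in the continuous hippocampus and 301 CPM in the liver.

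After 5 days of CORT the hippocampal level of Sult1a1 was also above that of the vehicle mice. The 4 WT vehicle mice had 5.38, 5.93, 5.53 and 6.05 CPM and the 5 WT CORT mice 20.8, 18.9, 18.6, 17.5 and 18.2 CPM. The 4 AS vehicle mice had 4.59, 3.94, 4.95 and 4.95 CPM and the 5 AS CORT mice 25.9, 23.3, 18.4, 22.4 and 22.9 CPM. The lowest CORT mouse of either genotype lay far above every vehicle mouse, and 4 of the 5 AS CORT mice lay above the highest WT CORT mouse. The WT mean rose 3.28-fold from 5.72 ± 0.319 (SD, n = 4) to 18.8 ± 1.21 CPM (SD, n = 5), with a log2 fold change of 1.71 ± 0.09 (SE, edgeR adjusted p = 4.20e-09). The AS mean rose 4.90-fold from 4.61 ± 0.476 (SD, n = 4) to 22.6 ± 2.70 CPM (SD, n = 5), with a log2 fold change of 2.29 ± 0.10 (SE, edgeR adjusted p = 3.55e-11). In both genotypes these were the smallest p-values among all 14949 genes tested, also without H1 and H2, and ranked 2nd with all 20 libraries. H1 and H2, the libraries with the most hepatocyte RNA, were not high in Sult1a1. Scaled to their level of Alb, the albumin gene of hepatocytes, RNA of vehicle livers would hold 0.220 and 0.0764 CPM of Sult1a1. That other liver RNA enters in the proportion of Alb is assumed here and was not tested.

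The response of Sult1a1 in the continuous hippocampus was larger in AS than in WT mice by 0.58 ± 0.13 on the log2 scale (SE), and did not pass (edgeR adjusted p = 1). Its unadjusted p ranked 1st among the 14949 genes, 14th without H1 and H2 and 2nd with all 20 libraries. With CORT the AS mice were higher than WT mice by 0.27 on the log2 scale (edgeR adjusted p = 0.303) and with vehicle they were lower by 0.31 (adjusted p = 0.50). Neither difference passed. In the acute hippocampus the corresponding AS minus WT differences were -0.12 with CORT (edgeR adjusted p = 0.382) and -0.17 with vehicle (adjusted p = 0.670).

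In liver, Sult1a1 started from a much higher level. The WT vehicle livers had 180, 200, 172, 217 and 185 CPM and the WT CORT livers 376, 405, 378, 422 and 431 CPM. The AS vehicle livers had 200, 287, 225, 219 and 259 CPM and the AS CORT livers 418, 301, 323, 419 and 451 CPM. The groups did not overlap in either genotype, but the AS vehicle livers reached closer to the AS CORT livers than was the case in WT. The WT mean rose 2.11-fold from 191 ± 17.8 to 402 ± 24.9 CPM (SD, n = 5), with a log2 fold change of 1.08 ± 0.11 (SE, edgeR adjusted p = 1.25e-06). The AS mean rose 1.61-fold from 238 ± 34.8 to 382 ± 66.3 CPM (SD, n = 5), with a log2 fold change of 0.68 ± 0.11 (SE, edgeR adjusted p = 1.17e-04). The response in AS minus that in WT was -0.39 on the log2 scale, of opposite sign to the value in the continuous hippocampus, and did not pass (edgeR adjusted p = 0.545). AS vehicle livers were higher than WT vehicle livers by 0.32 on the log2 scale (edgeR adjusted p = 0.316), which did not pass.

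In WT vehicle mice of the continuous cohort the level of Sult1a1 in liver was 62.0-fold that in hippocampus, a log2 difference of 5.95 on a scale where the median gene differed by -0.16. The rise with CORT was smaller in liver than in hippocampus. In AS mice the log2 response in liver minus that in hippocampus was -1.57 ± 0.16 (SE, edgeR adjusted p = 8.06e-09), and in WT mice it was -0.62 ± 0.15 (SE, adjusted p = 0.00829). The WT difference rested on leaving out H9 and H13, since with all 40 libraries it was -0.44 (edgeR adjusted p = 0.137). H13 had 9.88 CPM of Sult1a1 against 3.94 to 6.05 CPM in the 8 vehicle libraries of the fit. Sult1a1 and Sult5a1 were the only members with levels above the floor in all mice of both tissues, and both were called for the level, against 89.6% of 15937 genes. Of these 2, 2 were called for the difference of response in AS mice and 1 in WT mice, against 12.1% and 7.86% of all genes.

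Sult1e1, the estrogen sulfotransferase, which inactivates estrogens at very low concentrations, was nearly absent from vehicle livers and had at least 166 counts in every CORT liver. Its gene lies beside those of Sult1d1 and Sult1b1, on chr5:87575969-87591594 of GRCm38, minus strand. The WT vehicle livers had 3, 2, 0, 1 and 4 counts and the AS vehicle livers 0, 4, 3, 1 and 2 counts. The WT CORT livers had 556, 325, 365, 166 and 775 counts, or 27.5, 16.7, 18.9, 8.50 and 39.5 CPM. The AS CORT livers had 488, 320, 321, 547 and 904 counts, or 25.6, 15.6, 15.7, 28.4 and 48.4 CPM. Every CORT liver was far above every vehicle liver, and within each CORT group the highest liver was more than 3 times the lowest.

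Summed over the 5 livers of a group and scaled by library size, Sult1e1 with CORT was 225 times that with vehicle in WT mice (exact 95% interval 122 to 469 for counting error, 2187 against 10 counts). In AS mice the ratio was 269 (146 to 561, 2580 against 10 counts). Sult1e1 passed the filter on low counts only through the CORT groups, so no test of its change is given. Means with CORT were 22.2 ± 11.8 CPM in WT and 26.7 ± 13.4 CPM in AS livers (SD, n = 5), a difference within the spread of either group. In the hippocampus Sult1e1 had 0 counts in all 24 acute libraries and in 18 of 20 continuous libraries, with 2 counts in H1 and 1 in H2.

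Set beside each other, Sult1a1 and Sult1e1 were both higher with CORT in liver, from starting levels that differed greatly. Per kilobase of exon, Sult1a1 in WT vehicle livers was at 127 CPM and Sult1e1 at 0.0790 CPM, so that the level of Sult1e1 after CORT remained below that of Sult1a1 without CORT. In the hippocampus CORT raised Sult1a1 whereas Sult1e1 stayed under the floor of 3 counts in every library. Sult1e1 could therefore not be compared between the tissues in its response.

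Sult1d1, which in mice conjugates catecholamines and other phenolic amines, rose in liver in both genotypes. It lies on chr5:87554645-87569027 of GRCm38, minus strand. The WT vehicle livers had 82.3, 85.2, 51.4, 87.2 and 54.8 CPM and the WT CORT livers 173, 172, 173, 123 and 182 CPM. The AS vehicle livers had 73.4, 56.1, 68.3, 60.2 and 57.0 CPM and the AS CORT livers 231, 169, 135, 244 and 182 CPM. The groups did not overlap, and 1 WT CORT liver, L15, stood below the other 4. The WT mean rose 2.28-fold from 72.2 ± 17.6 to 165 ± 23.4 CPM (SD, n = 5, log2 fold change 1.19 ± 0.17 SE, edgeR adjusted p = 5.13e-05). The AS mean rose 3.05-fold from 63.0 ± 7.55 to 192 ± 45.0 CPM (SD, n = 5, log2 fold change 1.61 ± 0.17 SE, edgeR adjusted p = 9.91e-07). L15 also had the lowest count of Sult1e1 among the CORT livers.

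Sult1b1, a sulfotransferase of thyroid hormones and small phenols on chr5:87513339-87538195, changed less. The WT vehicle livers had 42.6, 45.5, 31.4, 41.0 and 33.5 CPM and the WT CORT livers 45.9, 47.3, 50.7, 41.4 and 46.1 CPM. The AS vehicle livers had 45.6, 38.4, 40.6, 38.1 and 36.5 CPM and the AS CORT livers 67.2, 53.2, 43.3, 60.0 and 53.3 CPM. CORT and vehicle livers overlapped in both genotypes. In AS mice Sult1b1 rose 1.39-fold from 39.8 ± 3.53 to 55.4 ± 8.90 CPM (SD, n = 5, log2 fold change 0.48 ± 0.11 SE, edgeR adjusted p = 0.00317). In WT mice the means were 38.8 ± 6.10 and 46.3 ± 3.33 CPM and the log2 difference of 0.25 ± 0.11 (SE) did not pass in edgeR (adjusted p = 0.122), although it did in limma-voom (adjusted p = 0.0353). The responses of the genotypes differed by 0.22 on the log2 scale (edgeR adjusted p = 0.715), which did not pass.

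Sult1c2, a family 1 enzyme on chr17:53829637-53846339, had lower levels with CORT that passed in WT mice. The WT vehicle livers had 12.3, 8.60, 4.23, 7.15 and 4.19 CPM and the WT CORT livers 4.75, 2.77, 3.0, 3.17 and 3.37 CPM. The AS vehicle livers had 12.6, 5.97, 6.10, 3.93 and 7.08 CPM and the AS CORT livers 7.70, 4.58, 4.95, 4.31 and 2.94 CPM. The highest livers of both vehicle groups, L1 and L2, lay well above the others, and the groups overlapped in both genotypes. In WT mice Sult1c2 fell to 0.469 of the vehicle level (log2 fold change -1.09 ± 0.33 SE, edgeR adjusted p = 0.0226). This call was lost without L1 (log2 fold change -0.82, edgeR adjusted p = 0.0859) and without L5, a WT CORT liver (-1.03, adjusted p = 0.0576). In AS mice the log2 difference of -0.54 ± 0.32 (SE) did not pass (edgeR adjusted p = 0.219), and the difference between the genotypes of 0.55 did not pass either (adjusted p = 0.747).

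Sult2a8, a hydroxysteroid sulfotransferase of the mouse liver that conjugates bile acids, fell with CORT to about 0.5 of its level. It lies on chr7:14410686-14446769 of GRCm38, minus strand, in a cluster of related Sult2a genes. How reads that match several of these genes were counted is not stated, and the level of Sult2a8 is uncertain to that extent. The WT vehicle livers had 813, 859, 682, 962 and 695 CPM and the WT CORT livers 420, 441, 508, 346 and 411 CPM. The AS vehicle livers had 880, 553, 767, 709 and 699 CPM and the AS CORT livers 414, 263, 313, 391 and 417 CPM. The CORT livers lay below all vehicle livers of their genotype. The WT mean fell from 802 ± 117 to 425 ± 58.1 CPM (SD, n = 5, log2 fold change -0.92 ± 0.14 SE, edgeR adjusted p = 1.17e-04). The AS mean fell from 722 ± 119 to 360 ± 68.8 CPM (SD, n = 5, log2 fold change -1.01 ± 0.14 SE, edgeR adjusted p = 2.60e-05). In hippocampus Sult2a8 had 0 counts in all acute libraries, 26 and 6 counts in H1 and H2 and at most 1 in the other continuous libraries.

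**Figure D2:**
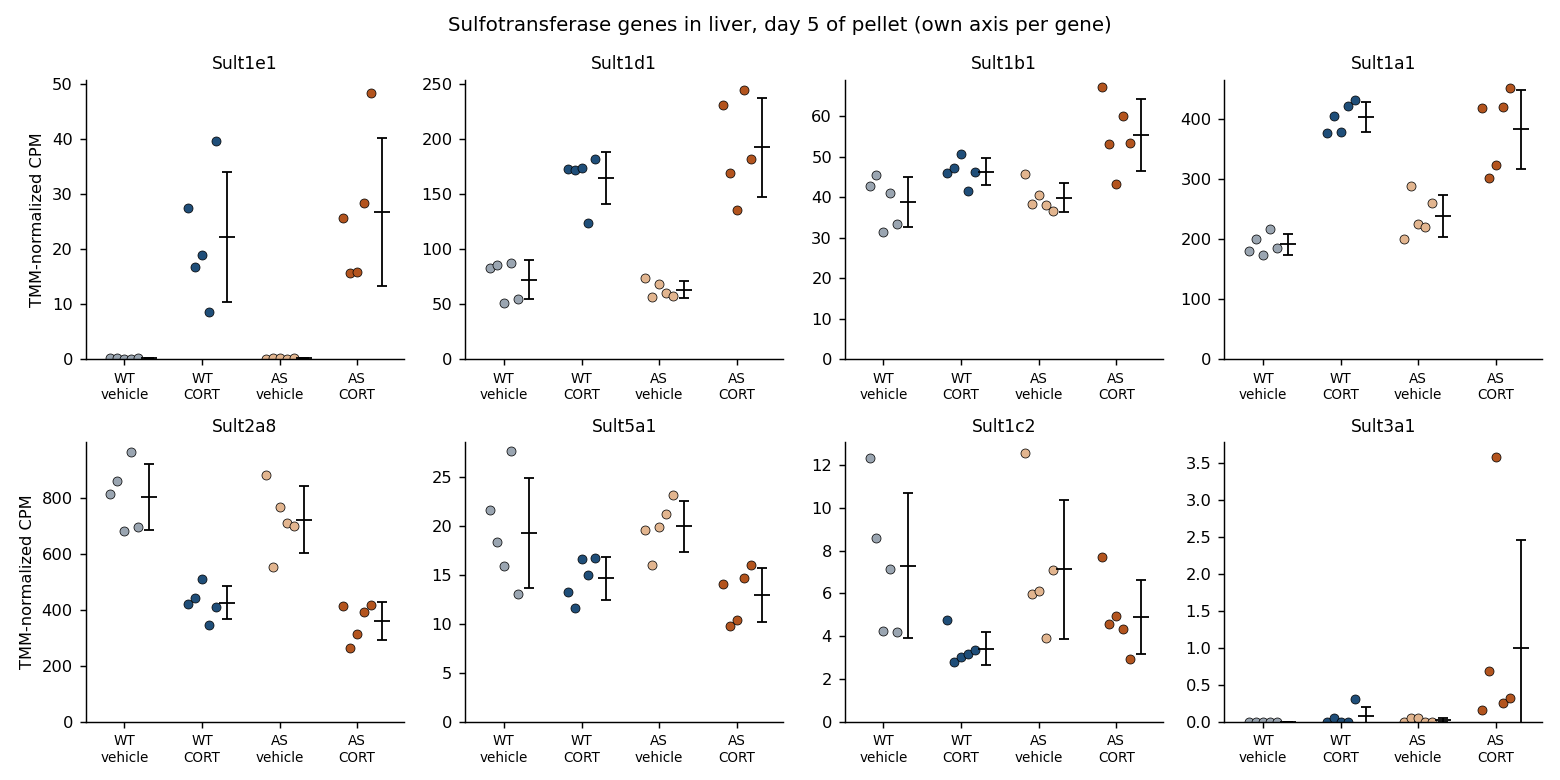
Liver values of 8 sulfotransferase genes in CPM for each mouse, by genotype and treatment, after 5 days of vehicle or CORT. Points are mice and bars give mean and SD (n = 5). Sult1a1, Sult1d1 and Sult1e1 are higher and Sult2a8 lower in every CORT liver than in any vehicle liver of the same genotype, whereas Sult1b1 and Sult1c2 overlap.

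Sult3a1, which sulfates amines and lies on chr10:33857721-33879532, did not pass the filter on low counts in any data set and was not tested. All WT vehicle livers and all hippocampal libraries had 0 counts, and the AS vehicle livers had 1 count in 2 mice and 0 in the other 3. The WT CORT livers had 0, 1, 0, 0 and 6 counts and the AS CORT livers 3, 14, 73, 5 and 6 counts. The AS CORT group was led by 1 liver, L10, with 73 of its 101 counts, although each of the other 4 also exceeded every AS vehicle liver. Summed over livers the AS ratio of CORT to vehicle was 52.6 (exact 95% interval 14.2 to 440 for counting error, 101 against 2 counts).

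Sult5a1, a member whose substrates are little known, was counted in both tissues, and its response differed between them in AS mice. It lies on chr8:123140192-123158315, minus strand. In liver the WT vehicle mice had 21.6, 18.3, 15.9, 27.6 and 13.1 CPM and the WT CORT mice 13.2, 11.6, 16.6, 14.9 and 16.7 CPM. The AS vehicle livers had 19.5, 16, 19.8, 21.2 and 23.1 CPM and the AS CORT livers 14.1, 9.74, 10.3, 14.7 and 16 CPM. WT groups overlapped, and in AS mice only the highest CORT liver and the lowest vehicle liver did, both at 16 CPM to the digits given. In AS livers Sult5a1 fell to 0.650 of the vehicle level (log2 fold change -0.62 ± 0.18 SE, edgeR adjusted p = 0.0126). In WT livers the log2 difference was -0.40 ± 0.18 (SE) and did not pass (edgeR adjusted p = 0.125), but passed without L17, a WT vehicle liver (-0.51, adjusted p = 0.0433).

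In the continuous hippocampus Sult5a1 had 1.88, 0.906, 1.84 and 1.67 CPM in WT vehicle mice and 1.95, 2.0, 2.17, 2.22 and 2.13 CPM in WT CORT mice. The AS vehicle mice had 2.32, 2.02, 0.870 and 2.32 CPM and the AS CORT mice 3.24, 2.98, 2.74, 2.40 and 3.20 CPM. The CORT mice lay above the vehicle mice of their genotype, on between 19 and 69 counts per library. The log2 differences of 0.41 in WT and 0.63 in AS mice did not pass (edgeR adjusted p = 0.434 and 0.149). The response in liver minus that in hippocampus was -1.21 ± 0.30 on the log2 scale (SE) in AS mice and passed (edgeR adjusted p = 0.00492), and in WT mice it was -0.80 ± 0.31 (SE) and did not pass (adjusted p = 0.113). Acute CORT gave log2 differences of 0.28 in WT and 0.07 in AS mice (edgeR adjusted p = 0.624 and 0.806), with group medians from 1.30 to 1.86 CPM.

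Sult2b1, which sulfates cholesterol and pregnenolone, was counted in hippocampus and reached at most 1 count in any liver. It lies on chr7:45729983-45784669 and shares 243 bases of exon with Lmtk3 on the other strand, so its value depends on counting by strand, which is not stated. The continuous WT vehicle mice had 7.35, 6.25, 6.32 and 5.41 CPM and the WT CORT mice 10.7, 7.5, 8.49, 8.14 and 7.37 CPM. The AS vehicle mice had 8.25, 5.50, 5.50 and 6.73 CPM and the AS CORT mice 8.74, 8.13, 8.04, 7.77 and 8.58 CPM. In WT the groups met within 0.0184 CPM of each other and in AS they overlapped through H2. The log2 differences of 0.41 ± 0.13 in WT and 0.35 ± 0.13 in AS mice (SE) did not pass (edgeR adjusted p = 0.105 and 0.180). Without H1 and H2, the libraries with hepatocyte RNA, they were 0.49 and 0.48 and passed (edgeR adjusted p = 0.0416 and 0.0337), an alternative chosen after the data were seen. Without H2 alone the AS difference was 0.48 (edgeR adjusted p = 0.0380). After acute CORT they were 0.16 in WT and -0.06 in AS mice (edgeR adjusted p = 0.631 and 0.712), on group medians of 6.48 to 7.24 CPM.

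Sult4a1, the orphan sulfotransferase of neurons, for which no physiological substrate is established, had by far the highest level of the family in the hippocampus. It lies on chr15:84076097-84105754, minus strand, and had at most 7 counts in any liver. In the acute hippocampus the lowest, median and highest values were 291, 350 and 372 CPM in WT vehicle mice and 324, 377 and 388 CPM in WT CORT mice. The AS vehicle mice had 324, 376 and 412 CPM and the AS CORT mice 318, 340 and 371 CPM. All 4 groups overlapped. The log2 differences with CORT were 0.12 in WT and -0.14 in AS mice and did not pass (edgeR adjusted p = 0.505 and 0.122). Their difference was -0.26 ± 0.09 on the log2 scale (SE) and did not pass in edgeR (adjusted p = 0.0832), whereas it did in DESeq2 (-0.26, adjusted p = 0.0349) and in limma-voom (-0.25, adjusted p = 0.0263). With the division by low-quality reads as a covariate it was -0.23 (edgeR adjusted p = 0.891).

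In the continuous hippocampus Sult4a1 averaged 417 ± 13.7 CPM in WT vehicle mice (SD, n = 4) and 431 ± 30.4 CPM after CORT (SD, n = 5). AS vehicle mice averaged 469 ± 28.5 CPM (SD, n = 4) and AS CORT mice 455 ± 38.9 CPM (SD, n = 5). The log2 differences with CORT of 0.05 in WT and -0.04 in AS mice did not pass (edgeR adjusted p = 0.807 and 0.833). AS vehicle mice were higher than WT vehicle mice by 0.17 on the log2 scale in this cohort (edgeR adjusted p = 0.562) and by 0.13 in the acute cohort (adjusted p = 0.503), and neither passed.

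**Figure D3:**
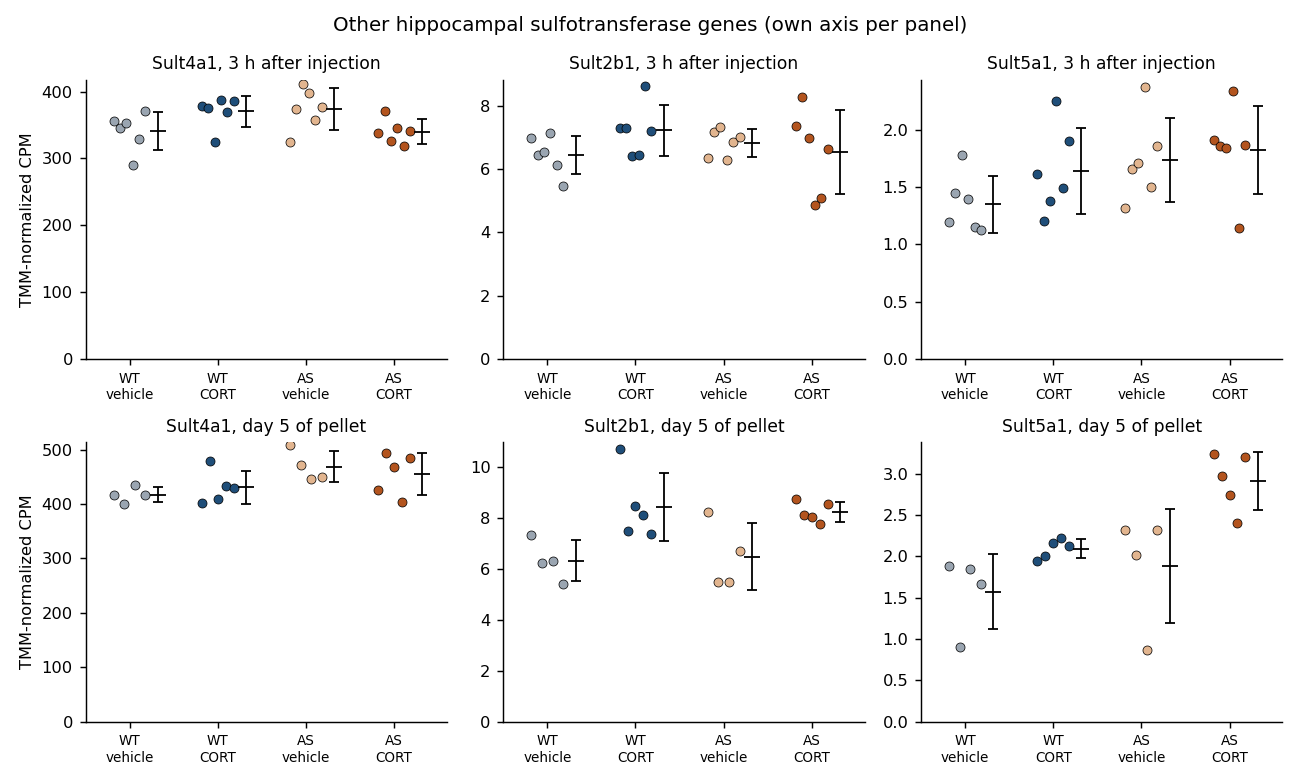
Sult4a1, Sult2b1 and Sult5a1 in CPM for each mouse in the acute and the continuous hippocampus, by genotype and treatment, with the mean and SD of each group. Sult4a1 lies between 291 and 508 CPM in all groups with overlap between treatments, and Sult2b1 and Sult5a1 lie at or below 10.7 and 3.24 CPM.

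Of the 4 members tested in the acute hippocampus, 1 was called for CORT in WT mice and 1 in AS mice, Sult1a1 in both, against 1.48% and 17.9% of the 14611 genes. In the continuous hippocampus 1 of 4 was called in WT and 1 in AS mice, again Sult1a1, against 2.92% and 3.77% of 14949 genes. The median log2 fold change of the 4 tested members there was 0.41 in WT and 0.49 in AS mice, beside medians of 0.0034 and -0.0027 over all genes. In the acute hippocampus the medians of the members were 0.22 and 0.0034, beside -0.0023 and 0.0064.

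In liver 7 members were tested, among them Sult1e1, which passed the filter only through the CORT groups and is therefore left out of the counts that follow. Of the other 6, 4 were called in WT mice, 2 higher and 2 lower, beside 18.6% of 12273 genes, of which 8.73% were higher and 9.9% lower. In AS mice 5 of the 6 were called, 3 higher and 2 lower, beside 27.5%, of which 12.6% were higher and 15% lower. The median log2 fold change of these 6 was -0.07 in WT and -0.03 in AS livers, beside -0.0047 and -0.0032 over all genes. Sult1a1 and Sult1d1 were called higher and Sult2a8 lower in both genotypes.

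**Figure D4:**
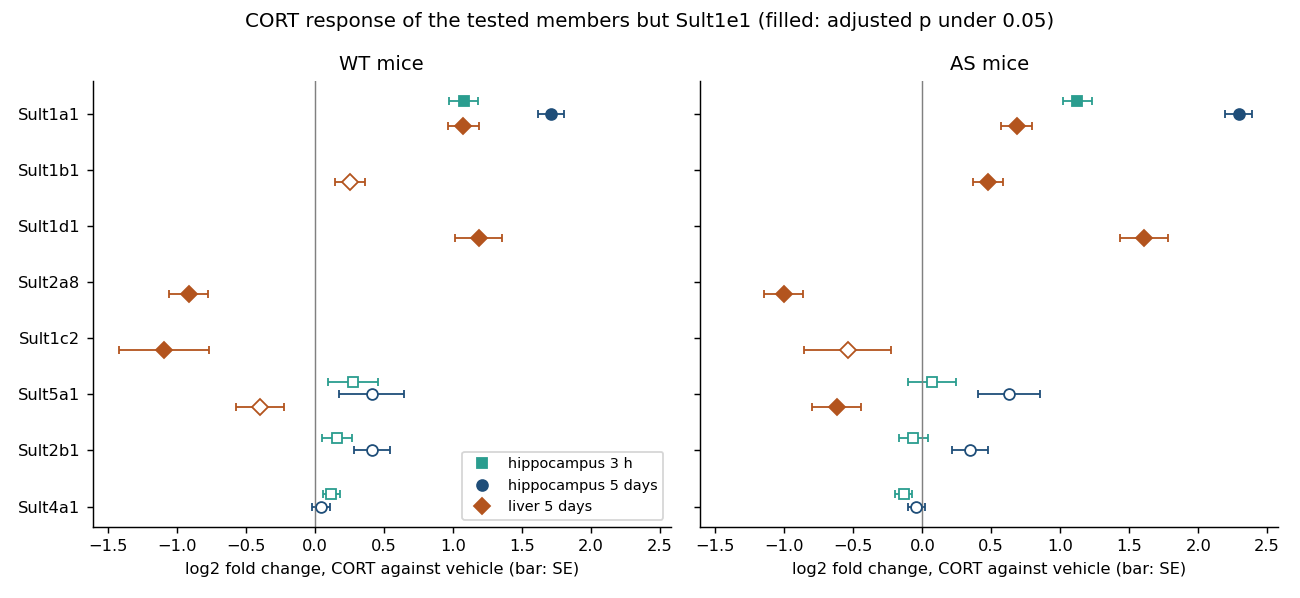
Log2 fold change with CORT (point) and its SE (line) for each tested sulfotransferase gene but Sult1e1, by data set, with WT and AS mice in separate panels. Filled points passed an adjusted p of 0.05 in edgeR. Sult1a1 is filled in all 3 data sets of both panels, from 0.68 in AS liver to 2.29 in AS continuous hippocampus, and Sult2a8 is filled at -0.92 and -1.01.

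Between the genotypes no member passed the test in any data set. For AS against WT mice with vehicle, 0 of 4 members were called in the acute hippocampus against 0.157% of genes, 0 of 4 in the continuous hippocampus against 0.0134% and, with Sult1e1 left out again, 0 of 6 in liver against 0.0163%. With CORT, 0 of 4, 0 of 4 and 0 of 6 were called, against 24.9%, 0.0401% and 0.277%. For the difference between the genotypes in response to CORT, 0 of 4, 0 of 4 and 0 of 6 were called, against 4.49%, 0% and 0%. With the division by low-quality reads as covariate the acute shares over all genes were 0% with CORT and 0.00684% for the difference in response. With CORT all AS mice and no WT mice lay on the upper side, so there genotype and the division can hardly be told apart. At an unadjusted edgeR p under 0.05 the members numbered 1, 2 and 1 with vehicle, 0, 2 and 1 with CORT and 1, 1 and 1 for the difference in response, in the same order of data sets. DESeq2 and limma-voom called 0 members in 8 of these 9 comparisons and 1 in the acute difference in response, which was Sult4a1.

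The order of the levels per kilobase of exon differed between the tissues. In WT vehicle hippocampus the order was Sult4a1, Sult1a1, Sult2b1 and Sult5a1, at 136, 3.94, 1.63 and 0.305 CPM per kilobase in the acute cohort and at 166, 3.80, 1.60 and 0.357 in the continuous cohort. None of these neighbours overlapped among mice. In WT vehicle liver Sult2a8 led with 244 CPM per kilobase, followed by Sult1a1 with 127, Sult1d1 with 29.3 and Sult1b1 with 14, again without overlap. Sult5a1 and Sult1c2, with 4.36 and 3.95 CPM per kilobase, overlapped and could not be ordered.

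As a share of the summed level of the 10 genes in liver, Sult2a8 and Sult1a1 exchanged places with CORT. Sult2a8 made up 57.7 ± 0.825% in WT vehicle livers and 25.7 ± 2.92% in WT CORT livers, and 51.4 ± 6.24% and 22.4 ± 1.15% in AS livers (SD, n = 5). Sult1a1 made up 30.1 ± 2.04% and 53.2 ± 4.47% in WT and 37.3 ± 6.86% and 51.9 ± 1.32% in AS livers. Sult1d1 went from 6.87 ± 0.940% to 13.3 ± 1.37% in WT and from 6.00 ± 0.481% to 16 ± 2.39% in AS livers, and Sult1e1 from 0.0190% to 3.50 ± 1.72% and from 0.0191% to 4.25 ± 1.54%. The sum itself was 423 ± 56.8 and 503 ± 28.6 CPM per kilobase in WT livers and 426 ± 22.5 and 489 ± 88.3 in AS livers, a difference close to the spread between mice. In the hippocampus Sult4a1 held on average between 91.0% and 97.3% of the sum in each group, and the mean share of Sult1a1 was 2.21% with vehicle and 6.71% with CORT in WT mice of the continuous cohort, and 1.60% and 7.59% in AS mice. Shares rest on the same counts as the levels and are a description without a test.

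**Figure D5:**
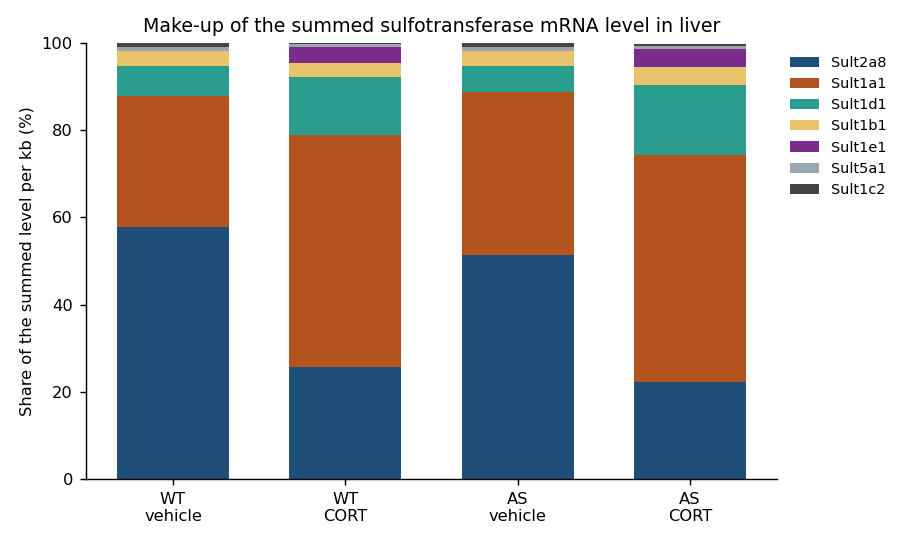
Mean share of each sulfotransferase gene in the summed CPM per kilobase of exon of the 10 genes in liver, as stacked bars in percent for the 4 groups (n = 5). Sult2a8 takes 57.7% and 51.4% of the bars in WT and AS vehicle livers, and Sult1a1 takes 53.2% and 51.9% in CORT livers.

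Among the 10 CORT livers, where Sult1e1 varied most, its log2 CPM was compared with that of 6 other members. The rank correlation was largest for Sult1d1, with Spearman's rho of 0.83 (permutation p = 0.00488, adjusted over the 6 relations 0.0293) and Pearson's r of 0.65 (permutation p = 0.0426, adjusted 0.256). Without the 2 livers farthest from the median Pearson's r was 0.55 for Sult1d1, below the 0.74 of Sult1a1 and the 0.74 of Sult5a1. The other 5 members had adjusted permutation p-values of 0.207 or more. Within the genotypes, with only 5 livers each and no test, Pearson's r was 0.87 in WT and 0.48 in AS livers for Sult1d1, -0.085 and 0.93 for Sult1a1 and 0.20 and 0.94 for Sult5a1, so the pooled values did not hold alike in both.

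The genes whose log2 CPM followed a member most closely were ranked by Pearson's r as a description. The libraries fall into vehicle and CORT groups, so r mainly ranks genes by a difference they share between these groups. For Sult1e1 over 20 livers these were Myom3 (r = 0.98), Cyp17a1, Cyp39a1, Gm47465 and As3mt, among them steroid and oxysterol hydroxylases (Cyp17a1 and Cyp39a1). For Sult1a1 over the same livers they were Atp6v0e (r = 0.97), Cyp2b10, Tm6sf2, Myom3 and F9. For Sult1a1 over 18 continuous hippocampal libraries they were Plin4 (r = 0.98), Fam107a, Etnppl, Aldoc and Cyp4f15, of which Etnppl and Aldoc are genes typical of astrocytes. Other astrocyte markers, Aqp4 and Gfap, fell with continuous CORT, as given below. For Sult1a1 over 24 acute libraries they were Lao1 (r = 0.95), Fkbp5, Cmtm3, Gm11627 and Mfsd2a, a lipid transporter of the blood-brain barrier.

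The marker lists of the cells that a sample can hold moved with CORT in part. In the continuous hippocampus 1 of 4 astrocyte markers rose (Aldoc, log2 fold change 0.55 in WT and 0.66 in AS mice) and 2 fell (Aqp4 by 0.85 and 0.85, Gfap by 0.69 and 0.55), and the summed list was at 3281 to 3889 CPM in WT vehicle and 3292 to 3599 CPM in WT CORT mice, and at 3108 to 3632 and 3153 to 3817 CPM in AS mice. Of 3 microglial markers 2 fell in both genotypes (Cx3cr1 and P2ry12), with sums of 196 to 218 CPM in WT vehicle and 162 to 181 CPM in WT CORT mice, and of 177 to 202 and 155 to 176 CPM in AS mice. Of 5 choroid plexus markers, 3 were tested and 2 fell in WT mice (Ttr and Folr1), with sums of 46.4 to 2772 CPM with vehicle and 3.71 to 83.1 CPM with CORT in WT mice and 56.4 to 275 and 5.59 to 421 CPM in AS mice. In liver 2 of 3 Kupffer cell markers fell in both genotypes (Cd5l and Clec4f, sums of 89.2 to 120 CPM in WT vehicle and 44.7 to 64.6 CPM in WT CORT livers, and of 118 to 163 and 44.1 to 66.6 CPM in AS livers). Csf1r and P2ry12 of the microglial list, which macrophages of the liver can also express, fell there by 0.87 and 0.86 in WT and by 1.33 and 0.93 in AS mice. Of 4 hemoglobin genes, 2 fell in WT livers (Hba-a1 and Hbb-bs, summed list 150 to 382 CPM with vehicle and 75.9 to 189 CPM with CORT) and 3 in AS livers (these and Hbb-bt, 82.0 to 269 and 62.5 to 86.1 CPM), whereas of 5 hepatocyte markers edgeR called 0 in WT livers, with 0 at an unadjusted p under 0.05, and 1, Alb, rose in AS livers by 0.32. Of 4 endothelial markers, Cldn5 fell in WT livers by 0.72, and Cldn5 and Pecam1 fell in AS livers by 1.17 and 0.57. The sums of the 4 markers were 98.1 to 137 CPM (median 115) in WT vehicle and 65.5 to 138 CPM (median 101) in WT CORT livers. In AS livers they were 87.1 to 146 CPM (median 110) with vehicle and 80.9 to 196 CPM (median 135) with CORT, so the list did not fall there as a whole. In AS hippocampus Cldn5 fell by 0.50 with continuous CORT and by 0.51 with acute CORT. With the division as covariate the acute log2 difference of Cldn5 was -0.35 and was not called (edgeR adjusted p = 0.657). Of 7 leptomeningeal fibroblast markers, 6 were tested in liver and Slc6a13, a transporter gene, rose in both genotypes, by 0.57 and 0.51. This list was higher in liver, at 294 to 498 CPM, than in hippocampus, at 23.1 to 61.2 CPM, so in liver its genes do not mark these cells. The sums of that list were 294 to 376 CPM in WT vehicle and 435 to 498 CPM in WT CORT livers, and 318 to 395 and 440 to 470 CPM in AS livers. The part of these cells in the values of the sulfotransferases was not tested.

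Of the genes that supply sulfate and PAPS, 11 were tested in liver, where 2 rose and 1 fell in each genotype, beside the 18.6% and 27.5% of all genes called in WT and AS livers. The list median of the log2 fold change was 0.11 in WT and 0.06 in AS livers. Papss2, which synthesizes PAPS, fell by 0.82 in WT (edgeR adjusted p = 0.00191) and by 0.99 in AS livers (adjusted p = 2.20e-04). Cdo1, which turns cysteine toward sulfate, rose by 0.47 and 0.65, Slc35b3, a PAPS transporter of the Golgi, rose by 0.39 in WT, and Impad1, a phosphatase of the spent donor, rose by 0.17 in AS livers. Of 12 tested in the acute hippocampus, edgeR called 0 in WT mice, where 2 had an unadjusted p under 0.05, and 2 in AS mice, Slc26a2 and Suox, higher by 0.26 and 0.25, beside 1.48% and 17.9% of all genes. With the division by low-quality reads as covariate neither was called, with log2 differences of 0.096 for Slc26a2 and 0.31 for Suox. Counts for this and the following lists come from edgeR alone. With continuous CORT hippocampal Slc35b2, the other Golgi PAPS transporter, fell by 0.23 in WT and by 0.21 in AS mice, and Slc13a4, a sulfate transporter, fell by 1.69 in WT mice, where choroid plexus markers were also lower.

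The other genes of cytosolic sulfotransferases were at or near 0 in these tissues. Of 11 in the list, none was tested in the hippocampus and only Sult2a7 passed the filter in liver, with log2 differences of 0.29 in WT and 0.00 in AS livers that did not pass. Of 22 membrane-bound sulfotransferases, which sulfate glycans and proteins in the Golgi, 11 were tested in liver, where 1 rose and 3 fell in WT and 2 rose and 4 fell in AS mice, beside 18.6% and 27.5% of all genes called. Chst7, a chondroitin sulfotransferase, fell by 1.04 and 0.99, Chst14, a dermatan sulfotransferase, by 0.63 and 0.88, and Chst2 by 0.87 in AS livers, while Hs6st1, a heparan sulfotransferase, rose by 0.68 in AS livers. Of 22 tested in the continuous hippocampus, 1 rose and 1 fell in WT and 1 rose and 2 fell in AS mice, beside 2.92% and 3.77% of all genes. Chst1 rose by 0.22 and 0.28 and Chst3 fell by 0.92 and 0.99. Of the 22 tested in the acute cohort, edgeR called 0 in WT mice, where 6 had an unadjusted p under 0.05, and 3 fell in AS mice, Hs3st2 by 1.0, Gal3st1, which makes the sulfatide of myelin, by 0.70 and Ndst1 by 0.23. These counts stand beside 1.48% and 17.9% of all genes. With the division as covariate none of the 3 was called, with log2 differences of -0.98 for Hs3st2, -0.48 for Gal3st1 and 0.0034 for Ndst1.

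Sulfatases and their activating factors, which remove or enable removal of sulfate, were called in liver for 3 of 6 genes in WT and 1 of 6 in AS mice, all higher, beside 18.6% and 27.5% of all genes. Sumf1, the enzyme that activates sulfatases, rose by 0.37 and 0.58, and Arsg, a lysosomal sulfatase, rose by 0.88 in WT livers but fell by 0.95 in WT continuous hippocampus. In the acute hippocampus 3 of 8 fell in AS mice, Arsg by 0.56, Arsa by 0.28 and Arsb by 0.20, and edgeR called 0 in WT mice, where 1 had an unadjusted p under 0.05, beside 17.9% and 1.48% of all genes. With the division as covariate none of the 3 was called, with log2 differences of -0.48 for Arsg, -0.14 for Arsa and 0.077 for Arsb. The acute response of Arsa in AS minus that in WT was -0.34 (edgeR adjusted p = 0.0418), and with the division as covariate it was -0.20 (adjusted p = 0.891). Glucuronosyltransferases, the parallel route of conjugation, were tested only in liver, where 2 of 14 rose and 3 fell in WT mice and 2 rose and 2 fell in AS mice, beside 18.6% and 27.5% of all genes. Ugt2b38 fell by 2.27 and 2.61 and Ugt2b35 by 0.82 and 0.71. Ugt3a2 rose by 0.31 and 0.40. Ugt1a5 rose by 1.34 and Ugt1a1 fell by 0.51 in WT livers, but the Ugt1a genes share exons and their counts are uncertain.

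Of 10 receptors and factors known to act on hepatic sulfotransferase genes, 1 rose and 2 fell in WT livers and 3 rose and 2 fell in AS livers, beside 18.6% and 27.5% of all genes. Nr1i2, the pregnane X receptor, rose by 0.39 and 0.65, and Nr3c1, the glucocorticoid receptor, fell by 0.15 and 0.22. Nr1i3, the constitutive androstane receptor, rose by 0.81 and Hnf4a by 0.45 in AS livers, and Ppara fell by 0.50 in WT livers. Stat5b, a mediator of growth hormone, fell by 0.68 in AS livers. With acute CORT hippocampal Nr3c1 fell by 0.48 in WT and by 0.34 in AS mice, and Ppara and Stat5b rose in AS mice by 0.54 and 0.33. These calls stand beside 1.48% and 17.9% of all genes. With the division as covariate the log2 differences in AS mice were of similar size, -0.36 for Nr3c1 (edgeR adjusted p = 0.0537), 0.44 for Ppara (0.769) and 0.31 for Stat5b (0.216), and were not called. Of the 6 tested in the continuous hippocampus, edgeR called 0 in either genotype, beside 2.92% and 3.77% of all genes, and 2 in each had an unadjusted p under 0.05.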

How the data were processed

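Samples were grouped by the genotype, treatment and tissue of their labels: 24 acute hippocampi, 20 continuous hippocampi and 20 livers. The authors aligned reads of stranded libraries with STAR (mm10), counted them per gene with HTSeq and deposited raw counts without normalization or pooling. Whether counting used strand and which annotation release it used are not given in the sources used here. Symbols, positions and exon lengths came from GENCODE release M 21 on GRCm 38, and promoter windows from RefSeq. Reads assigned to no gene (11.7% to 23.3% per library) were left out.

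Genes over 20 median-of-ratios counts in 3 or more mice of a group were tested in R 4.3.3 with edgeR 4.0.16 (quasi-likelihood F test, TMM, 1 coefficient for each of 4 groups, Benjamini-Hochberg adjustment over all genes tested, threshold 0.05). CPM are TMM-normalized. The log2 CPM used for the genes most alike in pattern and for residuals of same-numbered pairs had a prior count of 2. The log2 CPM of the correlations among CORT livers had none, and fold changes kept the default of edgeR. Tissues were compared in 1 fit of 38 libraries with 8 groups. H9 and H13 of the continuous hippocampus stayed out, as in the study. Ratios of summed counts carry exact binomial intervals, and counting intervals cover counting error only. The scripts were tested on simulated data.

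The alternatives were DESeq2 1.42.0, its size factors within edgeR, no filter, fits of the 2 groups compared, limma-voom with quality weights (limma 3.58.1), each replicate left out, all libraries, the acute division by low-quality reads (as covariate or with AS vehicle mice of 1 side only), CPM without TMM, and the mouse number as a replicate block. Numbers of hippocampal and liver libraries match in the labels, but residuals of the 18 same-numbered pairs correlated by only -0.0814 to 0.0762, so the numbers were not taken to pair libraries.

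Named were all 10 members, Ube3a, Fkbp5 and Tsc22d3 as checks, at most 4 genes past the threshold per related list, tissue and fit by size of the log2 fold change, and the 5 genes most alike in pattern. Markers that passed were named for the cell types described. The members and lists were chosen with earlier results of these data known. Replicates within a group are separate mice. The study took hippocampus and liver from the same mice of the continuous cohort, and the tissue fit treated these libraries as independent.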

Additional observations from a re-analysis of the deposited data

Results flagged for a closer look

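In the WT CORT livers, L15 stood apart from the other 4 mice for Sult1d1 with 123 CPM, where the median was 173 and the highest 182 CPM. In the acute WT CORT hippocampi, mouse 9 stood apart for Sult4a1 with 324 CPM, where the median was 377 and the highest 388 CPM. These were 2 of 58 groups examined, and chance marks about 1 group in 20.

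The response of Sult1a1 to CORT differed between the tissues, with a log2 response in liver minus that in hippocampus of -1.57 in AS mice and -0.62 in WT mice. For Sult5a1 the same difference was -1.21 in AS mice. All 3 passed the edgeR test of the difference itself, and the WT value for Sult1a1 did not pass once H9 and H13 were included.

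H13, a WT vehicle hippocampus that the fits left out, had 9.88 CPM of Sult1a1, above the 3.94 to 6.05 CPM of the 8 vehicle libraries of the fit and below every continuous CORT hippocampus. It also had 1.46 CPM of Sult1c2, where those 8 libraries had 0 to 0.496 CPM. Its count of the choroid plexus gene Ttr was 274230, and the next highest among the 20 libraries was 59530 in H17, which was also next highest in Sult1c2.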

How the results depend on the processing

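The values of the members were recomputed under the alternatives, each replicate left out in turn among them. limma-voom was not run for the tissue comparison, and the related lists were recomputed only in the acute cohort, with the division as covariate. Of the single results, 1273 stayed alike, 11 passed only under the alternative, 3 no longer passed and 8 changed sign. Alike means the same direction and side of the threshold for a fold change, and a shift within the spread between mice for a level in CPM. These and the counts that follow include Sult1e1 in liver, for which no test of its change is given here. Of 477 counts of members 462 were equal to the main count, 4 differed from it by at most 1.5 times and 11 by more. The 4 were all for CORT in WT livers, where, with Sult1e1 left out, 5 in place of 4 members passed in limma-voom (Sult1b1 added) and without L17 (Sult5a1 added), and 3 without L1 or without L5 (Sult1c2 lost). With DESeq2 and with limma-voom 1 member, Sult4a1, passed for the acute difference in response in place of 0. Leaving out 1 mouse gave 0 to 1 members for this comparison (without AS vehicle mouse 13 or 17 or WT CORT mouse 9), 0 to 1 for AS against WT mice with acute CORT (without WT CORT mouse 9), 1 to 2 for acute CORT in AS mice (without AS vehicle mouse 13) and 1 to 2 for continuous hippocampal CORT in AS mice (without H2). Without H1 and H2, 2 members passed in the continuous hippocampus in WT and 2 in AS mice, Sult2b1 being the added one. With all 40 libraries 0 members in place of 1 passed for the tissue difference in WT mice. The acute difference in response of Sult1a1 changed sign to -0.069 with the division by low-quality reads as covariate and to -0.073 with AS vehicle mice of 1 side, and ranged from -0.014 to 0.14 with 1 mouse left out. With 1 mouse left out, acute CORT in AS mice ranged from -0.014 to 0.17 for Sult5a1 and from -0.15 to 0.0068 for Sult2b1. The causes were not tested. With the mouse number as a replicate block the tissue differences of Sult1a1 were -1.50 in AS mice (edgeR adjusted p = 1.37e-06) and -0.58 in WT mice (adjusted p = 0.0156), that of Sult5a1 in AS mice was -1.32 (adjusted p = 0.00427), the counts of members called stayed at 2, 2 and 1, and no call changed. CPM without TMM moved no level beyond the spread between mice. Members under the floor of 3 counts, Sult1e1 in hippocampus among them, may be expressed below this depth, and p-values cover the spread of 4 to 6 mice of 1 cohort.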

Other observations

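Tsc22d3, a gene that glucocorticoids induce, rose with CORT like Fkbp5, by 0.79 and 1.06 on the log2 scale in WT and AS acute hippocampus, by 0.53 and 0.78 in continuous hippocampus and by 1.25 and 1.74 in liver. Sult1a1 exceeded Tsc22d3 in log2 fold change in both hippocampal data sets and lay below it in liver, as values set side by side without a test. Of the 12 promoter windows of the 9 members with a RefSeq promoter, the glucocorticoid receptor half-site occurred in 1 window of Sult1b1 and 1 of Sult1c2 besides that of Sult1a1. TATAAA occurred in both windows of Sult2a8, against 12.4% of all promoter windows, and the forkhead core TGTTTAC occurred in 0 windows of the members, against 3.17%.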
